A study of Arabidopsis thaliana with 12 samples.

Results

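The cytochrome P450s and glutathione transferases (GSTs) of Arabidopsis thaliana were described here in roots and shoots of seedlings labelled aladin and of their wild type. A gene was taken as a member where its probe set was linked to exactly 1 gene and the symbol in the array annotation was a full P450 name (CYP, family number, subfamily letter, number) or GST, a class letter and a number. This chose 38 of the 38408 probe sets, 24 P450s and 14 GSTs. The rule reads names and no measured value, but these families were chosen with earlier results of these data known. Shares of members that passed are therefore descriptions only. All 38 genes were found in the RefSeq annotation by gene number. That annotation names 225 P450 and 47 GST genes in the same way, so the members are a small share of both families. As 20927 of the probe sets were linked to no named gene, other genes of these families may be on the array without a name. Of the P450s, 20 belong to the subfamily CYP71B, of which RefSeq names 35 genes, and the others are CYP78A9, CYP79A2, CYP79C2 and CYP84A4. The GSTs are 11 of 27 tau genes, 2 of 12 phi genes and 1 of 3 lambda genes, while no theta or zeta gene was a member.

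Cytochrome P450s are haem enzymes of the endoplasmic reticulum that put an oxygen atom into small molecules, with electrons from a P450 reductase. In plants they make hormones, lignin precursors, glucosinolates and defence compounds, and they oxidise herbicides. GSTs join glutathione, a sulphur-containing tripeptide, to reactive or foreign compounds, and the conjugates are pumped into the vacuole. Tau and phi GSTs are large plant families, often arranged as tandem copies and often induced by stress, whereas lambda GSTs carry out glutathione-dependent reductions. The CYP71B genes also stand largely in tandem, and most have no assigned substrate.

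The samples formed 4 groups of 3 Affymetrix Arabidopsis Gene 1.0 ST arrays, namely aladin root, wild-type root, aladin shoot and wild-type shoot. All plants were seedlings 10 days old, raised on vertical agar plates with sucrose after 3 days of stratification. They were kept at 20 °C with a 16 h photoperiod, and the labels name no treatment. The wild type was the ecotype Wassilewskija-4, named in the study's design as the ecotype belonging to the mutant. The labels give neither the allele nor the number of mutant lines, and do not say how many plants were pooled. Signals were RMA estimates given as log2, where 1 unit is a doubling. Signals of different probe sets are not comparable as levels, so each gene was compared only with itself.

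ALADIN (AT3G56900), the nucleoporin gene after which the mutant is labelled, averaged 12.69 ± 0.09 in libraries labelled aladin and 8.39 ± 0.03 in wild-type libraries of root (SD, n = 3 each). In shoot it averaged 12.39 ± 0.03 and 7.74 ± 0.05 (SD, n = 3 each). ALADIN signal was thus higher where the label reads aladin, and the labels do not say where the mutation lies relative to the probes. Each direction below therefore compares arrays by their labels, aladin relative to wild type. Arrays of a group correlated at 0.990 to 0.993 in root and at 0.983 to 0.987 in shoot (Pearson's r across all probe sets). With 3 arrays per group, the number of arrays limits the precision. The titles call the samples biological replicates without saying what was kept separate, so the p values measure the spread between these samples.

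The root comparison addressed which of these genes differed between the genotypes in root. Of the 38 genes, 4 rose and 4 fell in roots labelled aladin (limma, adjusted p under 0.05 over all 17481 probe sets with a named gene), and 30 did not pass. With 1 array left out, 5 to 9 passed, and the even split did not hold under each such change. It was 2 higher and 3 lower without aladin root replicate 2 or wild-type root replicate 3, 1 higher and 5 lower without aladin root replicate 3, and 1 higher and 4 lower without wild-type root replicate 2. The 8 are 21.1% of the members, and 7.64% of all tested probe sets passed, 4.63% as higher and 3.01% as lower. Among the GSTs 3 rose (GSTF3, GSTU22 and GSTU15), 3 fell (GSTU20, GSTU26 and GSTL3) and 8 did not pass. Among the P450s 1 rose (CYP71B6), 1 fell (CYP71B34) and 22 did not pass, so that the P450 share of 8.33% was close to that of all probe sets. Whether the families differ in this share was not tested. The median root difference was -0.09 for the GSTs, -0.20 for the P450s and -0.04 for all tested probe sets. The median size of the difference, sign left aside, was 0.48 for the GSTs, 0.23 for the P450s and 0.13 for all tested probe sets.

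GSTF3 (AT2G02930), a phi-class GST, had the largest root difference of the 38. Its signal was 6.67, 7.02 and 7.04 in aladin roots, against 5.40, 5.33 and 4.99 in wild-type roots. The groups were more than 1 unit apart at their nearest arrays, and the rise was 1.67 (SE 0.38, 3.19-fold, limma adjusted p = 0.0186). GSTF3 was also the member with the widest spread, with a pooled within-group SD of 0.56 against a median of 0.22 over the members. That spread lay in shoot, where the SDs were 0.72 in aladin and 0.79 in wild type, against 0.20 and 0.22 in root. As the fit uses 1 spread for all 4 groups, the standard error in root contains the shoot scatter. The gene no longer passed when any of 4 root arrays was left out, namely aladin replicate 2 (0.0691) or 3 (0.0698) and wild-type replicate 2 (0.0520) or 3 (0.0782), and over all alternatives the adjusted p ran from 5.3e-04 to 0.0782. GSTF3 has a near-identical relative, GSTF2, and whether its probes tell the 2 transcripts apart could not be checked here.

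GSTU22 (AT1G78340), a tau-class GST, had signals of 9.30, 9.57 and 9.77 in aladin roots, against 9.11, 8.69 and 8.87 in wild-type roots. The lowest aladin array lay just above the highest wild-type array, and the rise was 0.66 (SE 0.14, 1.58-fold, limma adjusted p = 0.0120). GSTU22 no longer passed when aladin root replicate 3 (0.0558) or wild-type root replicate 2 (0.0578) was left out, with a range of 0.00144 to 0.0578 over all alternatives. GSTU15 (AT1G59670) had 4.45, 4.45 and 4.83 in aladin roots, against 3.92, 4.07 and 4.02 in wild-type roots. All aladin arrays were higher, aladin replicate 3 most of all, and the rise was 0.57 (SE 0.11, 1.49-fold, limma adjusted p = 0.0063). GSTU15 was a dim probe set, since its mean over the 12 arrays, 3.96, lay under the 25th percentile of such means over the tested probe sets.

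GSTU23 (AT1G78320), the neighbour of GSTU22, had 5.92, 5.92 and 6.07 in aladin roots, against 5.68, 5.52 and 4.99 in wild-type roots. The groups did not overlap, but the difference of 0.57 (SE 0.16) did not pass (limma adjusted p = 0.0535). It passed without wild-type root replicate 1 (0.0295), without wild-type shoot replicate 3 (0.0459) and under 3 of the 9 other alternatives that kept the threshold, with a range of 0.0161 to 0.172. GSTU25 (AT1G17180), an enzyme known to act on the explosive TNT, had 7.68, 8.06 and 8.34 in aladin roots, against 7.62, 7.71 and 7.69 in wild-type roots. These groups overlapped, because aladin replicate 1 lay among the wild-type arrays, and the difference of 0.35 did not pass (limma adjusted p = 0.532).

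GSTU20 (AT1G78370) was lower in both organs. This tau GST is also known as FIP1, a partner of the jasmonate-conjugating enzyme FIN219. Its root signals were 8.93, 8.69 and 9.02 in aladin, against 9.69, 9.45 and 9.53 in wild type. Its shoot signals were 10.97, 10.87 and 10.79 in aladin, against 11.51, 11.69 and 11.38 in wild type. In neither organ did the groups overlap. The signal fell by 0.67 in root (SE 0.11, limma adjusted p = 0.0030) and by 0.65 in shoot (SE 0.11, limma adjusted p = 0.0125), 1.59-fold and 1.57-fold lower. Both calls held with any 1 of the 12 arrays left out, with adjusted p up to 0.0182 in root and 0.0451 in shoot. The shoot call ended in a fit on the shoot arrays alone (0.0927), where the range over all alternatives was 6.4e-04 to 0.0927. The root effect minus the shoot effect was -0.02, with a 95% interval of half-width 0.35.

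GSTU26 (AT1G17190), a tau GST, had 10.73, 10.60 and 10.78 in aladin roots, against 11.21, 11.25 and 11.44 in wild-type roots. The 2 groups were well apart and the signal fell by 0.60 (SE 0.12, 1.51-fold lower, limma adjusted p = 0.0113). GSTU26 no longer passed when aladin root replicate 2 (0.0564) or wild-type root replicate 3 (0.0578) was left out, with a range of 7.8e-04 to 0.0578 over all alternatives. GSTL3 (AT5G02790), a lambda GST of the kind that reduces oxidised flavonols, had 8.15, 7.92 and 7.98 in aladin roots, against 8.48, 8.39 and 8.56 in wild-type roots. The groups did not overlap and the signal fell by 0.46 (SE 0.08, 1.37-fold lower, limma adjusted p = 0.0050). It was the most evenly measured of the 38 genes, with a pooled within-group SD of 0.08.

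GSTU28 (AT1G53680) had 6.83, 6.71 and 6.73 in aladin roots, against 7.36, 7.23 and 7.19 in wild-type roots. Its root groups were tight and did not overlap, with SDs of 0.06 and 0.09, but the difference of -0.50 (SE 0.22) did not pass in the shared fit (limma adjusted p = 0.221). It passed in a fit on the root arrays alone (limma adjusted p = 0.0071) and with array weights (0.0427, range 0.0071 to 0.432 over all alternatives). Its shoot SDs were 0.33 in aladin and 0.51 in wild type. The other GSTs that did not pass in root, GSTF4, GSTU16, GSTU18, GSTU21 and GSTU27, had root differences from -0.28 to -0.04.

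**Figure D1:**
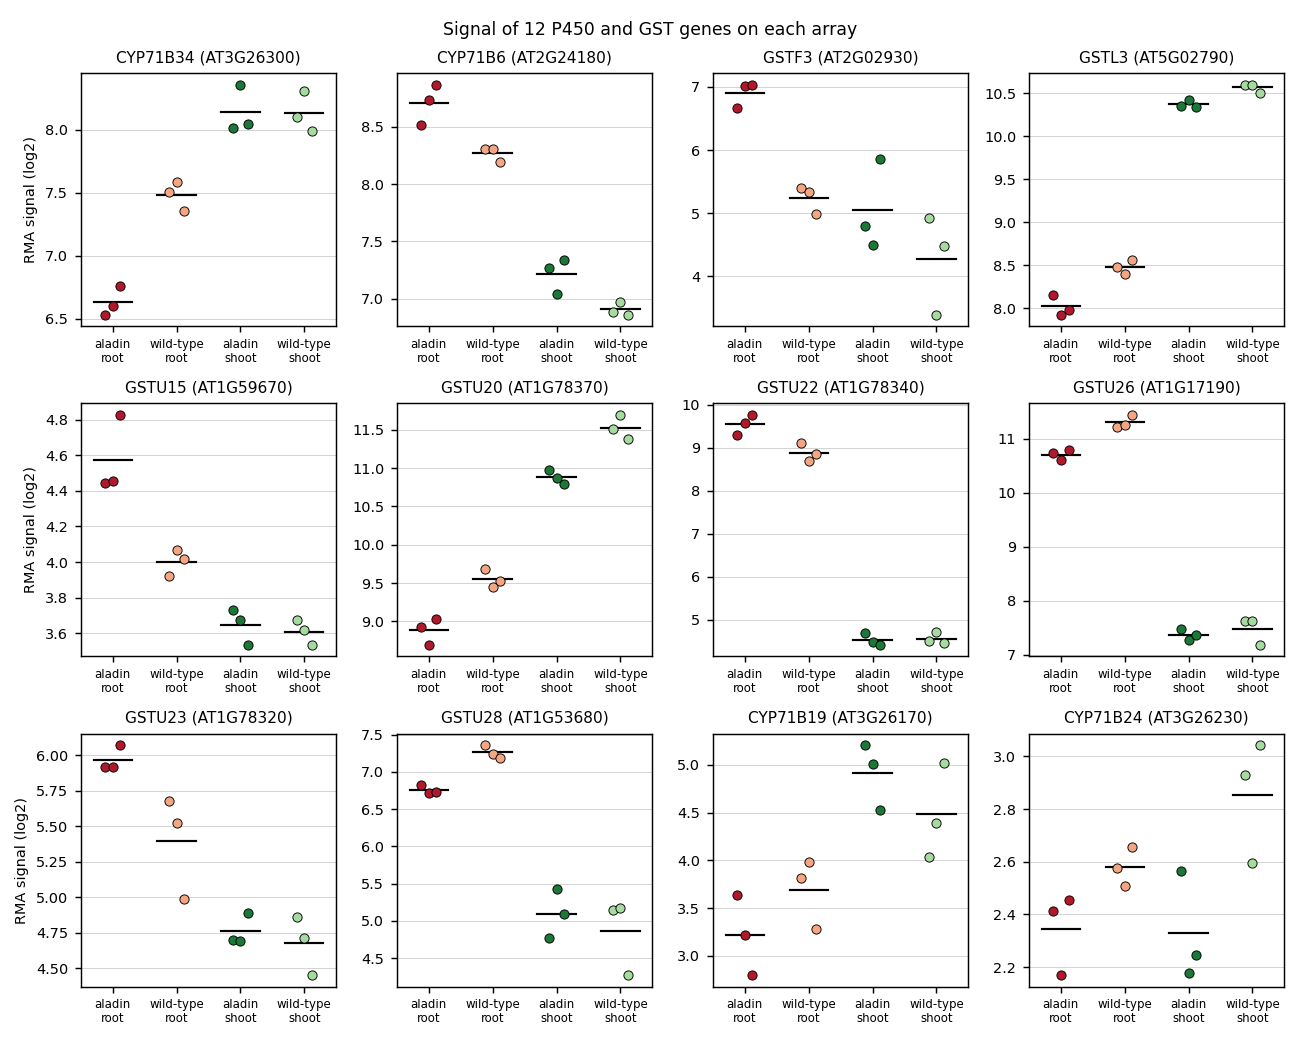
RMA signal (log2, vertical axis, scaled for each gene) on each of the 12 arrays for the 8 genes that passed in root or shoot and 4 others with large differences that did not. Points are arrays and lines are group means of 3. The CYP71B34 points of aladin root lie between 6.53 and 6.76, under all other groups, while GSTU20 is lower in aladin than in wild type in both organs.

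Of the P450s, CYP71B34 (AT3G26300) had the smallest adjusted p of all 38 genes in root. Its signal was 6.53, 6.60 and 6.76 in aladin roots, against 7.50, 7.59 and 7.36 in wild-type roots. The groups were 0.60 units apart at their nearest arrays, and the signal fell by 0.85 (SE 0.12, 1.81-fold lower, limma adjusted p = 7.6e-04). In shoot it had 8.02, 8.36 and 8.05 in aladin, against 8.10, 8.30 and 7.99 in wild type. These groups overlapped fully, with a difference of 0.01 and a 95% interval of half-width 0.26 (limma adjusted p = 0.980). The root effect minus the shoot effect was -0.86 (SE 0.17, limma adjusted p = 0.0225). CYP71B34 was the 1 member of 38 to pass this test, or 2.63%, where 2.15% of all tested probe sets passed (1.43% with a positive and 0.715% with a negative difference). The root call held with any 1 array left out (adjusted p up to 0.0053). The call for the difference between organs ended when any 1 of 5 arrays was left out, namely aladin root replicate 1 (0.0571) or 2 (0.0628), wild-type root replicate 1 (0.0618) or 2 (0.0647), and wild-type shoot replicate 1, which left it just over the threshold, with a range of 0.0040 to 0.0647 over all alternatives.

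CYP71B6 (AT2G24180), an enzyme that oxidises indole-3-acetonitrile, had 8.51, 8.73 and 8.87 in aladin roots, against 8.31, 8.30 and 8.19 in wild-type roots. All aladin arrays were higher, and the rise was 0.44 (SE 0.11, 1.35-fold, limma adjusted p = 0.0260). In shoot it had 7.27, 7.04 and 7.33 in aladin, against 6.89, 6.97 and 6.86 in wild type, a difference of 0.31 with no overlap that did not pass (limma adjusted p = 0.158). The root call was the least steady of the 8. Leaving out aladin root replicate 2 (0.0929) or 3 (0.111), or any of the wild-type roots (0.0641, 0.0666 and 0.109 for replicates 1, 2 and 3), ended it, with a range of 0.0032 to 0.111 over all alternatives.

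The other 18 CYP71B genes had root differences from -0.48 to 0.25 and none passed by limma, although 2 of them had an unadjusted p under 0.05. CYP71B19 (AT3G26170) had the largest of these, with 3.63, 3.21 and 2.80 in aladin roots, against 3.81, 3.98 and 3.28 in wild-type roots. The groups overlapped, and the difference of -0.48 (SE 0.29) did not pass (limma adjusted p = 0.407). The 4 P450s of other subfamilies all had a negative root difference, from -0.46 to -0.21, with no overlap between the groups, but none passed by limma and 2 had an unadjusted p under 0.05. They were CYP84A4 (-0.46), which takes part in arabidopyrone synthesis, CYP79A2 (-0.29), which starts benzylglucosinolate synthesis from phenylalanine, CYP78A9 (-0.28), a gene of fruit and seed size, and CYP79C2 (-0.21). CYP84A4 (limma adjusted p 0.128) passed without aladin shoot replicate 1 (0.0487) and with array weights (0.0447), with a range up to 0.376 over all alternatives. CYP79A2 (limma adjusted p 0.107) passed without aladin root replicate 3 (0.0499) and with array weights (0.0176), with a range up to 0.311. CYP71B16, with a root difference of -0.44 and no overlap, passed with array weights alone (0.018, against 0.126 in the main fit). Over all 38 members the root groups did not overlap for 21, where 31.7% of all tested probe sets had no overlap. Of the 38 root differences 28 were negative. The median root difference over all tested probe sets was also under 0 (-0.04), and the share of negative ones among them was not counted. Of the 38 genes, 11 were dim by that measure, 9 P450s and 2 GSTs.

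**Figure D2:**
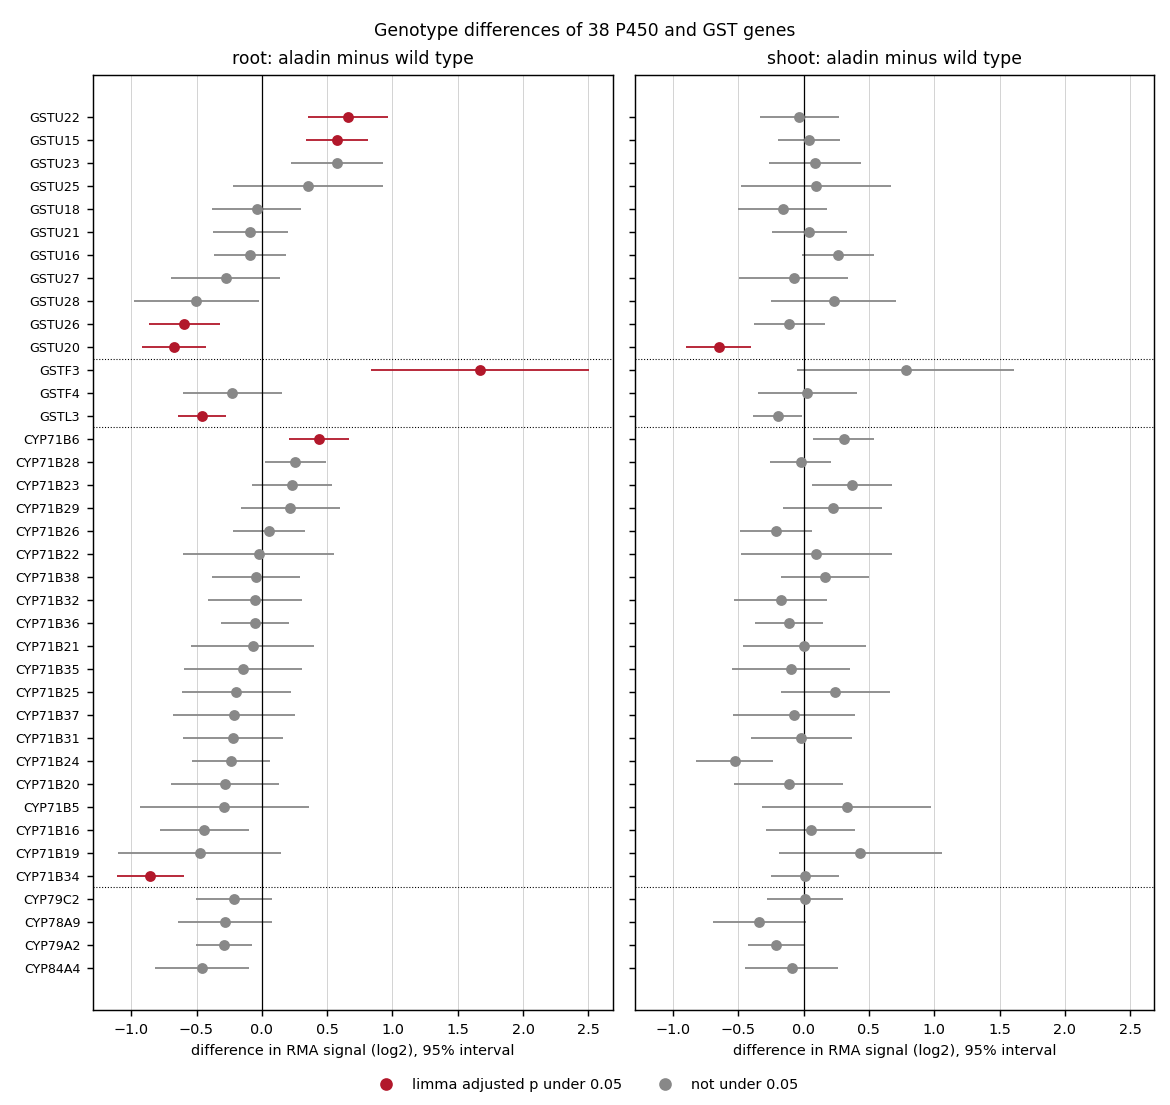
Difference between aladin and wild type (log2, horizontal axis) in root and in shoot for all 38 genes, ordered within tau GSTs, phi and lambda GSTs, CYP71B genes and other P450s. Points are limma estimates from 3 arrays per group, bars are 95% intervals not adjusted for the number of genes, and red marks an adjusted p under 0.05. In root 8 genes are red, in shoot GSTU20 alone.

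In shoot, GSTU20 was the 1 gene of 38 that passed by limma, as lower, with 5 genes at an unadjusted p under 0.05. This is 2.63% of the members, against 2.96% of all tested probe sets (1.49% higher and 1.47% lower). The groups did not overlap for 6 members, and for 19.0% of all tested probe sets. The median shoot difference was 0.01 over the members and -0.02 over all tested probe sets, and the median size 0.11 and 0.13. GSTF3 had 4.79, 4.49 and 5.86 in aladin shoots, against 4.92, 3.39 and 4.48 in wild-type shoots. The groups overlapped, wild-type replicate 2 being far the lowest and aladin replicate 3 the highest, and the difference of 0.78 (SE 0.38) did not pass (limma adjusted p = 0.317). Its root effect minus its shoot effect was 0.89 with a 95% interval of half-width 1.18.

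CYP71B24 (AT3G26230) had 2.56, 2.18 and 2.24 in aladin shoots, against 2.93, 2.60 and 3.04 in wild-type shoots. The groups just failed to overlap, the gene was dim, and the difference of -0.53 (SE 0.14) did not pass (limma adjusted p = 0.0644). It passed without wild-type shoot replicate 2 (0.0351) or aladin shoot replicate 1 (0.0436), with a range of 0.0351 to 0.252 over all alternatives. CYP71B19 had 5.21, 5.01 and 4.53 in aladin shoots, against 4.03, 4.39 and 5.02 in wild-type shoots. The groups overlapped and the difference of 0.43 (SE 0.29) did not pass (limma adjusted p = 0.477). Its root effect minus its shoot effect, -0.91, was as large as that of CYP71B34 but did not pass (limma adjusted p = 0.339), and its pooled within-group SD was 0.41, against 0.15 for CYP71B34. GSTU22 and GSTU15, which rose in root, had shoot differences of -0.03 and 0.04. Neither gene's root effect minus shoot effect, 0.69 and 0.53, passed (limma adjusted p = 0.107 and 0.112), so a difference between the organs was not shown for them.

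The comparison of the wild-type organs addressed where each gene is mainly measured. Of the 38 genes 13 were higher in root, 15 were higher in shoot and 10 did not pass. This is 73.7% of the members, against 58.8% of all tested probe sets (31.9% higher in root and 26.9% higher in shoot). The GSTs were more often higher in root (9, with 4 higher in shoot and 1 not passing), the P450s more often higher in shoot (11, with 4 higher in root and 9 not passing). These are counts of the measured members, and the families were not tested against each other. The split over all members depended on the scaling. It was 12 higher in root and 11 in shoot with quantile normalization, and 12 and 17 with each array centred on its median. In whole organs a lower signal from fewer cells of a type cannot be told apart from less RNA per cell.

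Of the genes higher in root, 3 tau GSTs stood far above the others in the size of the difference. GSTU25 had 7.62, 7.71 and 7.69 in wild-type roots, against 3.11, 2.66 and 3.06 in wild-type shoots, a difference of 4.73 (SE 0.26, 26.6-fold, limma adjusted p = 1.2e-08). GSTU22 had 9.11, 8.69 and 8.87 in wild-type roots, against 4.52, 4.71 and 4.47 in wild-type shoots, a difference of 4.32 (SE 0.14, limma adjusted p = 1.0e-10). GSTU26 had 11.21, 11.25 and 11.44 in wild-type roots, against 7.62, 7.63 and 7.18 in wild-type shoots, a difference of 3.82 (SE 0.12, 14.2-fold, limma adjusted p = 1.1e-10). All 3 were thus mainly measured in root, and GSTU22 rose while GSTU26 fell in aladin roots. The next were GSTU28 (2.40), CYP71B37 (1.64) and CYP71B6 (1.36). The smallest difference of the 13 was that of GSTU15 (0.39).

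Of the genes higher in shoot, CYP71B35 (AT3G26310) had 4.86, 4.02 and 4.14 in wild-type roots, against 7.66, 8.11 and 8.08 in wild-type shoots. The organs were far apart, at a difference of -3.61 (SE 0.21, 12.2-fold lower in root, limma adjusted p = 1.5e-08). GSTU18 followed with -2.62, then CYP71B5 (-2.41), GSTL3 (-2.09), GSTU20 (-1.97) and CYP71B20 (-1.60). CYP71B34 was also higher in shoot, at -0.65 (SE 0.12, limma adjusted p = 4.9e-04). Thus the 3 genes GSTU20, GSTL3 and CYP71B34, which fell in aladin roots, were higher in shoot than in root, and GSTU26, which fell too, was higher in root. All 4 genes that rose in aladin roots were higher in wild-type root than in wild-type shoot, GSTF3 by 0.98 (limma adjusted p = 0.0442). The organ call of GSTF3 ended without any 1 of 9 arrays, all but wild-type shoot replicate 1, aladin shoot replicate 2 and aladin shoot replicate 3 (adjusted p up to 0.192).

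**Figure D3:**
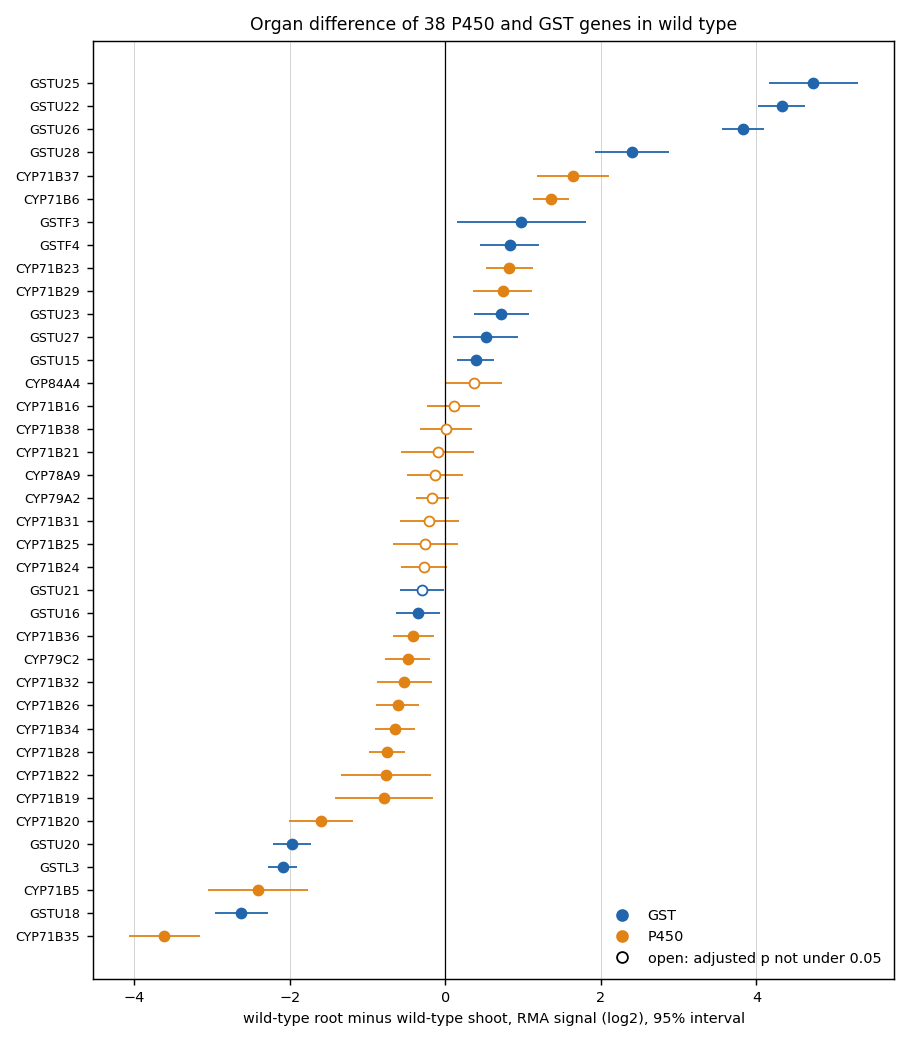
Wild-type root minus wild-type shoot (log2, horizontal axis) for all 38 genes, from limma with 3 arrays per group. Bars are 95% intervals not adjusted for the number of genes, and open points did not pass an adjusted p of 0.05. GSTU25, GSTU22 and GSTU26 lie at 3.82 to 4.73, and CYP71B35 at -3.61.

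Among the markers of green tissue, RCA passed in the root comparison. Of the 8 genes listed for green tissue 4 had a probe set with 1 named gene. Their summed linear signal was 772 to 1085 in aladin roots and 624 to 661 in wild-type roots. In shoots it was 9726 to 10264 in aladin and 10085 to 10723 in wild type. RCA, Rubisco activase, rose in aladin roots by 0.61 (limma adjusted p = 0.0031), while LHCB4.1, LHCB4.2 and PORB did not pass. RCA had 9.54, 9.16 and 9.14 in aladin roots, against 8.73, 8.66 and 8.62 in wild-type roots. The differences of the others in root were 0.13 for LHCB4.1, -0.53 for LHCB4.2 and 0.56 for PORB, so the 4 markers did not all point one way. PORB had 7.13, 6.13 and 5.67 in aladin roots, so replicate 1 was far the highest. Its replicate 3 lay under all wild-type root arrays. RCA had the highest mean signal of the 4 in both root groups, so the sum in root does not stand for the 4 markers evenly. Of 11 listed root markers 3 had such a probe set (EXPA7, EXPA18 and PYK10), and none passed in either organ by limma. Their summed linear signal was 14238 to 14583 in aladin roots and 14590 to 14889 in wild-type roots. In shoots it was 4833 to 5366 in aladin and 4357 to 4810 in wild type. PYK10 had by far the highest mean signal of the 3 in every group, so these sums mostly stand for PYK10. The root differences were -0.29 for EXPA7, -0.43 for EXPA18 and -0.03 for PYK10. In shoot they were -0.25 for EXPA7, -0.16 for EXPA18 and 0.15 for PYK10, so the higher shoot sum in aladin was not shared by EXPA7 and EXPA18. What part either marker list has in the root differences was not tested.

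Many members lie next to each other on the chromosome, which is usual for both families. With at most 5 annotated genes between one member and the next, 26 of the 38 fell into 7 groups of neighbours and 12 stood apart. Calls in root were not the same for all neighbours, and no neighbour was tested against another. In the group GSTU23, GSTU22, GSTU21 and GSTU20, listed in chromosome order, GSTU22 rose in aladin roots, GSTU20 fell, and GSTU23 (0.57) and GSTU21 (-0.09) did not pass. The same genes differed between the wild-type organs, where GSTU23 and GSTU22 were higher in root by 0.72 and 4.32, GSTU20 was higher in shoot (-1.97), and GSTU21 did not pass (-0.30). GSTU26 fell in aladin roots, while its direct neighbour GSTU25 had a difference of 0.35 that did not pass. GSTU15 rose, and GSTU16, with 3 annotated genes between them, had a difference of -0.09.

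The CYP71B genes of the largest array of copies, at locus numbers AT3G26150 to AT3G26330, formed groups of 7 and 6 members. In the group of 7, CYP71B16 to CYP71B24, root differences ran from -0.48 to 0.23 and none passed by limma. In the group of 6, CYP71B25 to CYP71B37, CYP71B34 fell by 0.85, and the others had differences from -0.21 to 0.06 that did not pass. Whether CYP71B34 differs from these neighbours was not tested. CYP71B35, the direct neighbour of CYP71B34 on one side, and CYP71B36, the next gene after it, had root differences of -0.14 (95% interval half-width 0.45) and -0.05 (half-width 0.26). Between the wild-type organs the 6 genes again split. CYP71B37 was higher in root by 1.64, CYP71B26, CYP71B34, CYP71B35 and CYP71B36 were higher in shoot, and CYP71B25 did not pass (-0.26). In the group CYP71B5, CYP71B31 and CYP71B32 none passed in aladin roots by limma, with differences from -0.29 to -0.05. CYP71B28 and CYP71B29, direct neighbours, had root differences of 0.25 and 0.22 that did not pass, and opposite organ differences of -0.75 and 0.74 that both passed. Whether the probes separate such copies could not be checked, as no probe sequences were used here.

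**Figure D4:**
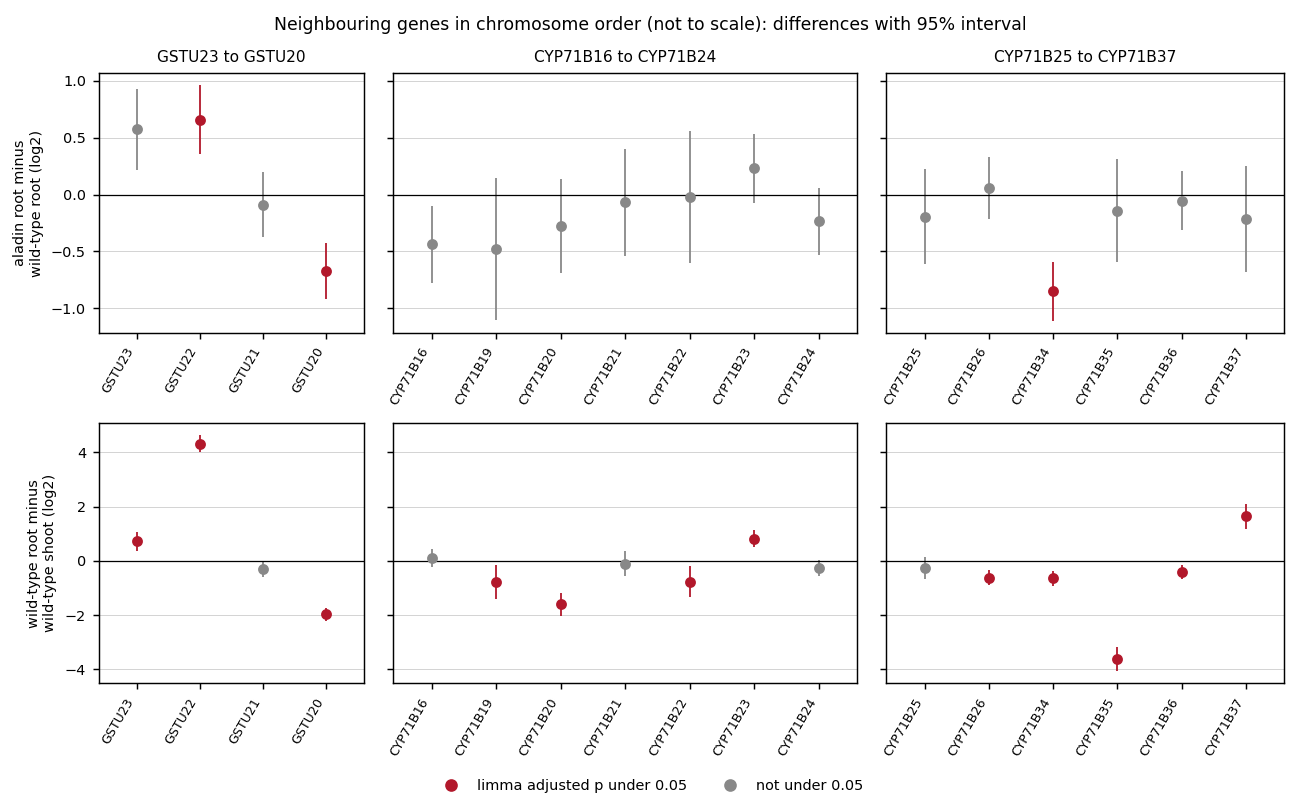
Differences with 95% intervals (log2, vertical axis) for the 3 largest groups of neighbouring genes, in chromosome order but not to scale. The upper row shows aladin root minus wild-type root and the lower row wild-type root minus wild-type shoot, with red for an adjusted p under 0.05. GSTU22 (0.66) and GSTU20 (-0.67) lie on opposite sides of 0 in the upper row, and CYP71B34 (-0.85) is the 1 red point of its group in that row, where its interval touches or overlaps those of CYP71B25, CYP71B35 and CYP71B37.

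Few of the other genes of these pathways could be assigned to a probe set. Of the 38408 probe sets, 20927 were linked to no named gene and 759 to several, so an unassigned gene is not shown to be unmeasured. Of 41 listed genes of P450 electron transfer, glutathione metabolism and conjugate transport, 5 had a probe set with 1 named gene. None of the 5 passed in root or in shoot by limma, with 2 and 1 at an unadjusted p under 0.05, and their median differences were 0.16 in root and 0.09 in shoot. The glutathione reductases, which keep glutathione reduced, were GR1 of the cytosol and peroxisome (-0.04 in root and 0.06 in shoot) and GR of plastids and mitochondria (-0.20 and 0.11). The plastid and mitochondrial GR had 8.79, 8.72 and 8.86 in aladin roots, against 8.91, 9.08 and 8.96 in wild-type roots, so its groups did not overlap although the test did not pass (limma adjusted p = 0.184). The others were the diflavin reductase gene AT3G02280 (0.22 in root and -0.005 in shoot), AT1G77290 (0.16 and 0.09) and AT1G65820 (0.18 and 0.24). The latter 2 were listed as other genes of GST type, and are not members because their symbols did not meet the naming rule. Root groups also did not overlap for AT3G02280 and AT1G65820, both higher in aladin. In shoot this held for the plastid and mitochondrial GR and AT1G65820, again both higher in aladin. Of all tested probe sets, 31.7% had no overlap in root and 19.0% in shoot. Between the wild-type organs 2 of the 5 were higher in root and 1, the plastid and mitochondrial GR, was higher in shoot (-1.23).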

How the data were processed

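Per the submitters' processing notes, RMA produced the deposited values, which their range and the method place on a log2 scale. Software, version, summary level and annotation build were not given in the sources used here. No detection calls were used and no filter was applied in the main analysis. Genes were assigned through the array annotation supplied, and 17481 with at least 1 named gene were tested. Gene names and order came from RefSeq (TAIR10.1), without coordinates, since the array's build is unknown.

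R 4.3.3 and limma 3.58.1 fitted the 4 group means to all 12 arrays (lmFit, eBayes, 8 residual and 3.67 prior degrees of freedom). Benjamini-Hochberg adjustment ran over the 17481, with a threshold of 0.05. No block was used. Whether replicate numbers pair the samples was checked by correlating deviations from the group means: r was -0.06 to 0.10 for equal numbers and -0.10 to 0.09 for unequal ones, so they were not treated as pairs. The procedure was tested on simulated data.

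Named members were those past the threshold for a genotype or organ-by-genotype effect, the 3 largest others in each organ, and the 6 most root-biased and 6 most shoot-biased genes. The neighbour groups and the other genes named were picked with their values in view. The members and lists were chosen with earlier results of these data known. Alternatives were another set of probe sets, a filter on dim ones, 2 scalings, replicate blocks, array weights, separate fits for each organ, another prior, a threshold of 0.01 and leaving out each array. Python 3.11 and matplotlib 3.10.9 drew the figures.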

Additional observations from a re-analysis of the deposited data

Results flagged for a closer look

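CYP71B34 was picked out because its genotype effect differed between the organs by the interaction test: the root effect minus the shoot effect was -0.86 on the log2 scale (limma adjusted p = 0.0225), with all 3 aladin root arrays under all 3 wild-type root arrays and overlapping groups in shoot. The adjusted p over the alternatives ran from 0.0040 to 0.0647, and the call ended without any 1 of 5 arrays. No rule for flagging single outlying arrays was applied to groups of 3 arrays, while each array was left out in turn.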

How the results depend on the processing

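Of the 8 genes that passed in root, CYP71B34, GSTL3, GSTU15 and GSTU20 passed under every alternative at the 0.05 threshold that tested them (GSTU15 was not tested where dim probe sets were left out). The count in root was 8 in the main analysis, 13 with array weights (5 higher and 8 lower), 4 at a threshold of 0.01 (1 higher and 3 lower), and 5 to 9 with 1 array left out. It was 5 without aladin root replicate 2 or wild-type root replicate 2 or 3. The genes added with array weights were GSTU23, GSTU28, CYP71B16, CYP79A2 and CYP84A4. The count in shoot was 1, against 2 with a trend and robust prior, 0 in a fit on shoot alone and 0 at 0.01, and 1 to 2 with 1 array left out. The second gene was CYP71B24 in each case. For the difference between organs the count was 1, against 0 at 0.01 and 0 to 1 with 1 array left out. Between wild-type organs it was 28, and 23 to 28 with 1 array left out. It was 23 with quantile normalization (12 higher in root and 11 in shoot). With each array centred on its median it was 29 (12 and 17), and at a threshold of 0.01 it was 21 (11 and 10). With the replicate number as a block across the 12 arrays the counts were 8 in root, 2 in shoot, 1 for the difference and 29 between organs. With the replicate block within organ they were 7 in root, where CYP71B6 no longer passed (0.0917), and 1 in shoot. No difference that had passed changed sign. The causes of these changes were not tested. Without detection calls, differences of the 11 dim genes rest on signals whose distance from background is unknown.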
